A study of Mus musculus with 20 samples.

Results

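Genes that carry out or restrain regulated cell death were followed in nuclei of mouse spinal cord. The set holds 36 genes: 4 of necroptosis, 6 of death receptor signalling, 7 of the inflammasome and pyroptosis, 10 of the BCL2 family, 5 apoptosome and mitochondrial factors, and 4 other caspases and PARP1. Members were chosen by symbol and known role, with earlier results of these data known, and all 36 symbols were found among the 43629 genes of the count table. Nuclei were separated by flow cytometry for NeuN, the nuclear protein encoded by Rbfox3 that marks most neurons. The 4 groups were NeuN-positive and NeuN-negative nuclei of healthy mice and of mice at day 15 of actively induced EAE (experimental autoimmune encephalomyelitis), with 5 libraries each. EAE models multiple sclerosis through T cells directed against myelin. The labels and protocols used here name no strain, sex, age or immunogen. Libraries are numbered 1 to 5 in each group, and values below follow that order.

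The 3 death programmes are linked. In apoptosis, death receptors activate caspase-8 through FADD, or BAX and BAK open the outer mitochondrial membrane and release factors that activate caspase-9. In necroptosis, RIPK3, engaged by RIPK1 or by the nucleic acid sensor ZBP1, phosphorylates MLKL, which permeabilizes the plasma membrane. Caspase-8 together with cFLIP holds necroptosis back. In pyroptosis, inflammasomes built on the adaptor ASC activate caspase-1, or caspase-11 senses lipopolysaccharide, and both cut gasdermin D into a pore-forming fragment. Many of these proteins are controlled by cleavage, phosphorylation or assembly, which RNA levels do not report.

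Total counts per library ran from 3149209 to 37689267 and were lowest in EAE NeuN-negative nuclei. Levels are given as library-size-scaled counts (CPM as edgeR gives it). Rbfox3 was at 329 ± 35.9 CPM (SD, n = 5) in healthy and 202 ± 73.2 in EAE NeuN-positive nuclei, against 29.5 ± 11 and 27.2 ± 13.2 in NeuN-negative nuclei. Neuronal markers summed to 25700 to 29900 CPM in healthy and 20300 to 32900 CPM in EAE NeuN-positive libraries. The most abundant neuronal markers in EAE NeuN-negative nuclei were Snhg11 at 1114 ± 523 and Snap25 at 271 ± 199 CPM. Markers of other cells were present in both sorts and changed with EAE. The 16 monocyte and macrophage markers summed to 26.9 to 62.1 CPM in healthy and 397 to 1960 CPM in EAE NeuN-positive libraries, and to 103 to 163 and 832 to 3260 CPM in NeuN-negative ones. Lyz2, the most abundant of them, rose from 6.54 ± 5.28 to 527 ± 456 CPM in NeuN-positive and from 19.1 ± 12 to 841 ± 524 CPM in NeuN-negative nuclei, and Chil3 was at 262 ± 202 CPM in EAE NeuN-negative nuclei. The 10 neutrophil markers summed to 1.97 to 7.92 and 19.7 to 146 CPM in NeuN-positive libraries, with Cxcr2 at 0 in the 5 healthy ones, and to 82.5 to 135 and 121 to 581 CPM in NeuN-negative ones, led in EAE by Csf3r (123 ± 119 CPM) and S100a9 (51.4 ± 27.3 CPM). Mitochondrially encoded RNA, which comes from cytoplasm, took 0.135 to 2.33% of counts in healthy and 0.821 to 7.52% in EAE NeuN-positive libraries, and 0.259 to 3.55% and 1.76 to 12.3% in NeuN-negative ones. For 3 numbers (EAE 2, EAE 4 and healthy 3) the NeuN-positive library exceeded 2%, and results were also computed without both libraries of these numbers. That leaves in EAE NeuN-negative 1 and 5, at 3.65 and 6.01%, so it does not remove every library over 2%. The same 3 numbers held the lowest total counts of their condition in each sort, so mitochondrial share and depth cannot be told apart.

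In EAE, 13 of the 36 genes rose and 1 fell in NeuN-positive nuclei, and 18 rose and 1 fell in NeuN-negative nuclei (edgeR quasi-likelihood test, adjusted p under 0.05 over all genes tested). Over all genes tested, 6.55% were called higher and 3.68% lower in NeuN-positive nuclei, and 15.1% and 12.6% in NeuN-negative nuclei. The median log2 fold change was 0.88 over the 33 members tested in NeuN-positive nuclei against -0.03 over the 16675 genes tested, and 1.28 over 36 members against 0.05 over 17604 genes in NeuN-negative nuclei. Ripk3, Tnfrsf10b and Nlrp3 had too few counts to be tested in NeuN-positive nuclei. Zbp1, Mlkl, Nlrp1b, Pycard and Casp12 reached the count limit of 0.64 CPM in none of the healthy NeuN-positive libraries, and Casp8, Casp4 and Casp1 in 1. These 8 genes entered the test through their EAE libraries, so their count and the NeuN-positive median are no support for a direction. In NeuN-negative nuclei, Ripk3 and Pmaip1 reached the limit of 0.886 CPM in 2 healthy libraries each. They also entered through EAE libraries, so their rises are no support for a direction. Rises called in both sorts were those of Zbp1, Mlkl, Tnfrsf1a, Casp8, Cflar, Nlrp1b, Pycard, Casp4, Gsdmd, Bcl2, Mcl1 and Casp12. Aifm1 fell in both, and 16 members were called in neither. The monocyte, macrophage and neutrophil markers rose with these genes: 14 of 15 tested monocyte and macrophage markers were called higher in NeuN-positive and 16 of 16 in NeuN-negative nuclei, and 7 of 7 and 7 of 8 neutrophil markers. Markers under the count limit in healthy libraries could enter the test only through EAE libraries. Counts of markers called higher, here and below, are therefore no support for a direction. Of T cell markers, 7 of 11 tested rose in NeuN-positive and 15 of 16 in NeuN-negative nuclei. Their sum was led by Thy1, which neurons also express, and ran at 627 to 1040 and 494 to 781 CPM in healthy and EAE NeuN-positive, and at 93.2 to 234 and 234 to 713 CPM in NeuN-negative libraries. Lck, the next most abundant, was at 2.48 ± 1.34 CPM in healthy and 47.1 ± 33.4 CPM in EAE NeuN-negative nuclei. Of B cell markers, 0 of 4 and 5 of 7 rose, and of fibroblast and pericyte markers 4 of 8 in each sort. Microglial markers rose for 5 of 11 in NeuN-positive nuclei, summing to 31.8 to 59.8 CPM in healthy and 132 to 242 CPM in EAE. In NeuN-negative nuclei 3 of 12 rose and 1 fell, with sums of 646 to 868 and 415 to 1700 CPM. The most abundant were Csf1r and Cx3cr1, at 335 ± 253 and 247 ± 154 CPM in EAE NeuN-negative nuclei. Glial markers fell in NeuN-negative nuclei: 8 of 13 of oligodendrocytes, 6 of 7 of their precursors and 5 of 12 of astrocytes. The precursor sum, led by Sox10 and Cspg4, ran at 744 to 1200 CPM in healthy and 119 to 560 CPM in EAE. The astrocyte sum, led by Gfap and Atp1b2, ran at 2330 to 5400 and 860 to 3200 CPM. The oligodendrocyte sum, led by Mbp and Mobp, overlapped, at 41900 to 67700 and 33600 to 94700 CPM. In NeuN-positive nuclei 2 of 13 oligodendrocyte markers rose and 0 fell. Of astrocyte markers there, 2 of 12 rose and 1 fell, and of precursor markers 0 of 7 rose and 1 fell. The oligodendrocyte sum in NeuN-positive libraries ran at 4000 to 44300 CPM in healthy and 11300 to 92700 CPM in EAE. The part of these cell types in the changes of the members was not tested. In sorted bulk nuclei a change in the number of cells of a type and a change in RNA per nucleus cannot be told apart. Without the 3 numbers of high mitochondrial share, the counts were 15 and 0 in NeuN-positive nuclei, where 7.21% and 1.83% of all genes were called higher and lower. They were 18 and 1 in NeuN-negative nuclei, where 17.4% and 12.3% were called. The gains in NeuN-positive nuclei were Casp1 and Nlrp3, and the loss was Aifm1 (-1.40, edgeR adjusted p = 0.0685). Nlrp3 had reached the limit of 0.64 CPM in none of the healthy NeuN-positive libraries. It entered this test through its EAE libraries, as did Casp1, so these gains and the 15 are no support for a direction.

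**Figure D1:**
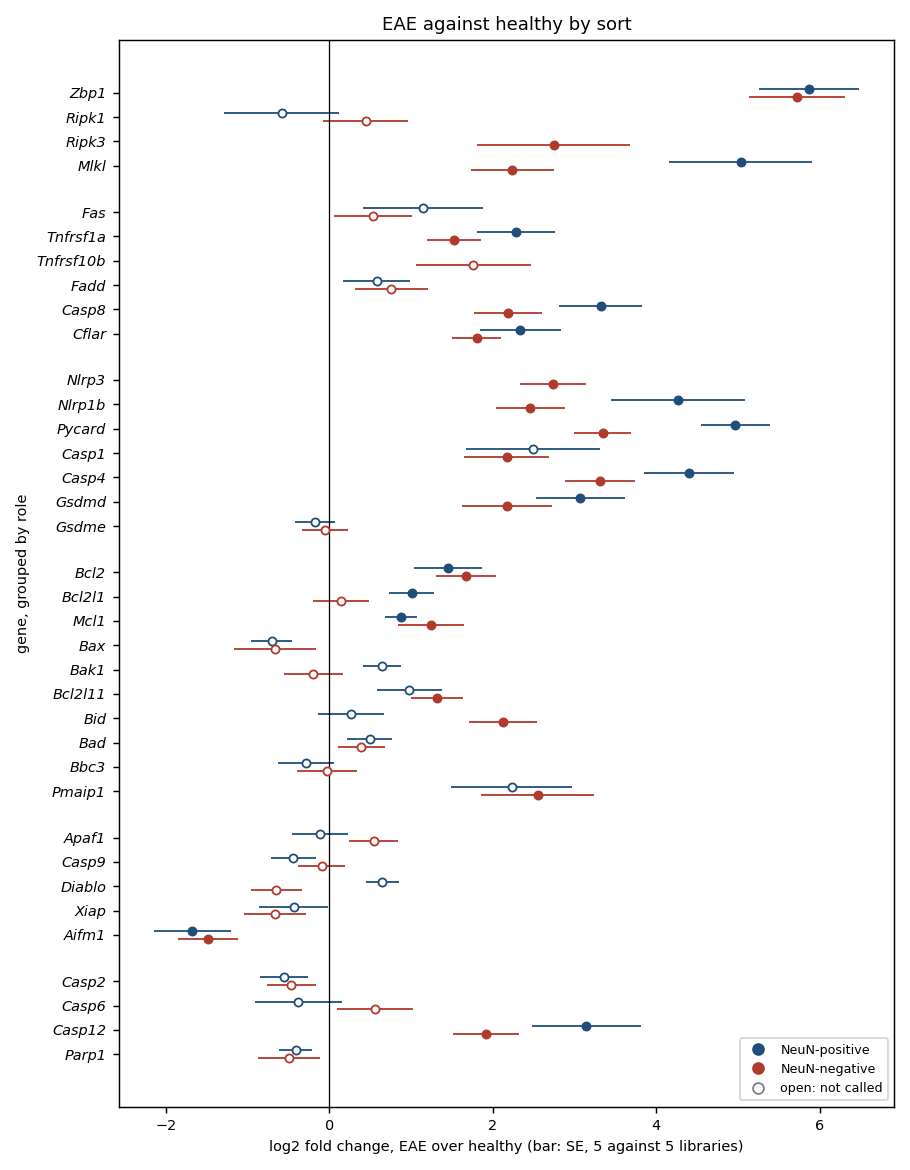
Log2 fold change of EAE over healthy (x axis) for the members, grouped by role (y axis), in NeuN-positive (blue) and NeuN-negative (red) nuclei. Points are edgeR estimates with their SE from 5 against 5 libraries, and filled points were called at an adjusted p under 0.05. The filled points farthest to the right are those of Zbp1 (5.87 and 5.72), and Aifm1 lies to the left in both sorts (-1.68 and -1.49).

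Several members lie next to each other in the genome (GENCODE M21, GRCm38). Casp1 (chr9:5298517-5307265), Casp4 (chr9:5308828-5336783) and Casp12 (chr9:5345430-5373032) form one block on the plus strand, and Cflar (chr1:58711508-58758884) precedes Casp8 (chr1:58795374-58847503) on the plus strand. Nlrp1b (chr11:71153102-71230733) has closely similar tandem copies, so its counts are uncertain. Exons of Ripk1, Fadd, Pycard, Bcl2, Bax, Bak1, Bid, Bad, Casp9, Diablo and Parp1 overlap exons of other annotated genes. No source used here says whether counting used strand, so reads of pairs on opposite strands cannot be told apart. For Ripk1, Bax and Parp1 the gene with the largest overlap lies on the same strand, where strand would not separate the reads.

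Promoters were read because 12 members rose together in both sorts. RefSeq promoters (GRCm38.p6, 250 bases before to 50 after a start) matched 32 of the 36 members and 10 of those 12, with 12 promoters between them. Zbp1 and Gsdmd had no promoter in this source and were not searched. The promoters were searched on both strands for the core of the interferon-stimulated response element (ISRE: GAAA, NN, GAAA) and for the gamma-activated site (GAS: TTC, NNN, GAA), elements bound by interferon-activated factors. The ISRE core stood in 1 of the 12 promoters (8.33%) and in 3.44% of 32851 promoters. The GAS core stood in 2 of the 12 (16.7%) and in 8.3% of 32851 promoters. The 4 matches are shown with the core in capitals, in 30 bases 5′ to 3′, as the only matches among these promoters, and no match overlapped another. They lie 244 bases before the RefSeq start of Tnfrsf1a, 6 bases after that of Cflar, and 102 and 36 bases before that of Casp12. The sites of Tnfrsf1a and the second of Casp12 overlap annotated untranslated exon sequence in GENCODE. A match of letters is a description and not a binding site.
Tnfrsf1a, chr6:125349473-125349502, plus strand: gcttccTTCCGTGAAattgacaacaggctt
Cflar, chr1:58711487-58711516, plus strand: ccacgtctgcTTTCGGTTTCtgggcgtctc
Casp12, chr9:5345364-5345393, plus strand: ctggttgactTTCTGGGAAaagagcaggag
Casp12, chr9:5345430-5345459, plus strand: attggtatgtTTCTGGGAAggaaaggcaca

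Of the 4 necroptosis genes, 2 of 3 tested rose in NeuN-positive and 3 of 4 in NeuN-negative nuclei, Ripk1 in neither. Over all genes 6.55% and 15.1% were called higher. Zbp1 and Mlkl entered the NeuN-positive test through their EAE libraries, so that count is no support for a direction. Ripk3 reached the NeuN-negative limit of 0.886 CPM in 2 healthy and 4 EAE libraries, so its rise is no support either. Zbp1, the sensor of Z-form nucleic acids, was at 0.428, 0.138, 0.693, 0.562 and 0.116 CPM in the healthy and 9.24, 25.4, 34.1, 19.5 and 9.67 CPM in the EAE NeuN-positive libraries. In NeuN-negative nuclei it was at 2.70, 1.13, 4.0, 2.36 and 0.757 CPM in healthy and 96.5, 38.7, 235, 40.3 and 83.0 CPM in EAE. Every EAE library lay above every healthy library of its sort. The log2 fold change was 5.87 ± 0.61 (SE) in NeuN-positive (edgeR adjusted p = 4.83e-05) and 5.72 ± 0.59 in NeuN-negative nuclei (edgeR adjusted p = 6.14e-06). Mlkl, the executioner of necroptosis, was near its detection limit in healthy NeuN-positive libraries, with 9 counts in the 5 together and 0.0535, 0.0345, 0, 0.421 and 0.0386 CPM. In EAE NeuN-positive libraries it was at 1.77, 4.03, 4.95, 4.55 and 1.32 CPM, again without overlap (log2 fold change 5.04 ± 0.87, edgeR adjusted p = 0.00213). NeuN-negative libraries held 2.35, 3.28, 9.09, 3.71 and 1.76 CPM of Mlkl in healthy and 19.4, 7.04, 30.7, 12.1 and 12.9 CPM in EAE. There the groups overlapped, since EAE 2 lay below healthy 3 (log2 fold change 2.24 ± 0.51, edgeR adjusted p = 0.00466).

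Ripk3, the kinase that phosphorylates MLKL, was scarce. Healthy NeuN-positive libraries held 0.214, 0.103, 0, 0.0702 and 0.0771 CPM and EAE ones 0.740, 0.149, 3.58, 1.03 and 0.197 CPM, which was not tested. NeuN-negative libraries held 1.60, 1.5, 0.363, 0.337 and 0.649 CPM in healthy and 8.26, 0, 14.7, 1.04 and 3.08 CPM in EAE. EAE 2 was at 0 and EAE 3 highest, so the groups overlapped (log2 fold change 2.75 ± 0.94, edgeR adjusted p = 0.0389). This call was lost when any of EAE 1, 3 or 5 or healthy 1, 2, 4 or 5 was left out (adjusted p 0.00668 to 0.145 over the 10 omissions). Ripk1, the kinase at the branch of survival, apoptosis and necroptosis, did not pass the test, with log2 fold changes of -0.58 ± 0.71 and 0.44 ± 0.52 (edgeR adjusted p = 0.615 and 0.542). Its group means were 3.29 ± 0.501 CPM (SD, n = 5) in healthy and 2.09 ± 2.05 in EAE NeuN-positive, and 9.11 ± 4.32 and 9.47 ± 6.17 in NeuN-negative nuclei.

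Among the death receptor genes, Tnfrsf1a, Casp8 and Cflar rose in both sorts, while Fas and Fadd did not pass the test in either. Tnfrsf1a, which encodes TNF receptor 1, was at 4.98, 1.52, 3.96, 5.13 and 2.31 CPM in healthy and 15.2, 22.4, 28.6, 8.66 and 6.64 CPM in EAE NeuN-positive libraries. These groups did not overlap (log2 fold change 2.29 ± 0.47, edgeR adjusted p = 0.00775). In NeuN-negative nuclei it was at 23.6, 23.0, 12.2, 18 and 29.0 CPM in healthy and 81.2, 27.6, 88.8, 22.3 and 34.8 CPM in EAE, where EAE 2 and 4 fell within the healthy range (log2 fold change 1.53 ± 0.33, edgeR adjusted p = 0.00327). Casp8, the initiator caspase of this pathway and a brake on necroptosis, had 50 counts in the 5 healthy NeuN-positive libraries, at 0.428, 0.483, 0.396, 0.772 and 0.501 CPM. The EAE NeuN-positive libraries held 2.59, 4.33, 7.90, 2.50 and 6.97 CPM (log2 fold change 3.32 ± 0.51, edgeR adjusted p = 0.000903). NeuN-negative libraries held 12.8, 12.9, 2.42, 7.53 and 12.5 CPM in healthy and 38.7, 17.3, 46.8, 16.3 and 56.9 CPM in EAE (log2 fold change 2.19 ± 0.41, edgeR adjusted p = 0.00131). In both sorts all EAE libraries exceeded all healthy ones.

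Cflar encodes cFLIP, the caspase-8 relative that blocks death receptor signalling, and it rose along with Casp8. NeuN-positive libraries held 6.42, 4.73, 17.0, 5.62 and 6.21 CPM in healthy and 24.5, 73.7, 28.3, 36.3 and 19.7 CPM in EAE (log2 fold change 2.33 ± 0.50, edgeR adjusted p = 0.00915). NeuN-negative libraries held 46.4, 44.3, 36.8, 35.1 and 43.8 CPM in healthy and 136, 131, 106, 57.8 and 136 CPM in EAE (log2 fold change 1.80 ± 0.30, edgeR adjusted p = 0.000479). Neither pair of groups overlapped, although healthy 3 came close in NeuN-positive nuclei. Fas, the receptor of FAS ligand, had log2 fold changes of 1.15 ± 0.73 and 0.54 ± 0.48 (edgeR adjusted p = 0.316 and 0.412). Levels of Fas were 1.53 ± 1.08 and 3.19 ± 2.58 CPM in healthy and EAE NeuN-positive, and 9.54 ± 4.54 and 11.8 ± 9.16 in NeuN-negative nuclei. Fadd, the adaptor between receptor and caspase-8, had 0.58 ± 0.41 and 0.76 ± 0.44 (edgeR adjusted p = 0.374 and 0.207). Levels of Fadd were 3.38 ± 1.5 and 4.71 ± 1.19 CPM in healthy and EAE NeuN-positive, and 5.71 ± 1.16 and 7.62 ± 2.86 in NeuN-negative nuclei. Tnfrsf10b, the mouse TRAIL receptor, was tested in NeuN-negative nuclei only and missed the threshold (1.76 ± 0.70, edgeR adjusted p = 0.0701), at 1.11 ± 0.399 CPM (SD, n = 5) in healthy and 2.90 ± 1.16 CPM in EAE.

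**Figure D2:**
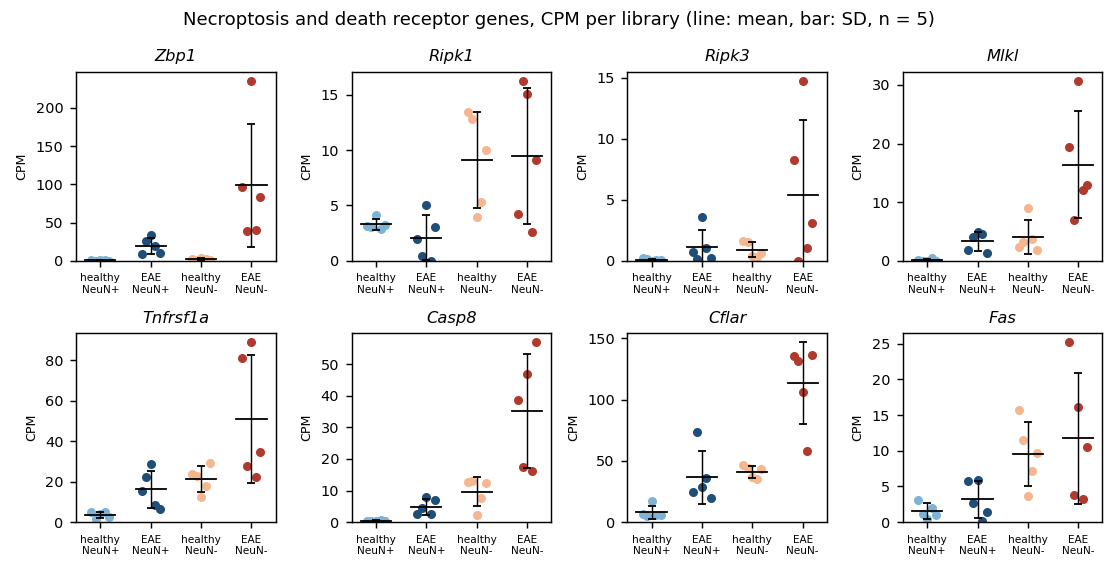
CPM (y axis, linear, one scale per gene) of 8 necroptosis and death receptor genes in each library of the 4 groups (x axis), with the mean as a line and the SD as a bar (n = 5), bars being cut at 0. Zbp1, Casp8 and Cflar lie higher in EAE than in healthy libraries of the same sort without overlap, and Ripk1 and Fas overlap.

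Of the 7 inflammasome and pyroptosis genes, 4 of 6 tested rose in NeuN-positive and 6 of 7 in NeuN-negative nuclei. Over all genes 6.55% and 15.1% were called higher. Nlrp1b, Pycard, Casp4 and Casp1 entered the NeuN-positive test through their EAE libraries, so that count is no support for a direction. Pycard, which encodes the inflammasome adaptor ASC, was at 0.375, 0.380, 0.297, 0.632 and 0.540 CPM in healthy and 7.69, 17.8, 15.2, 14.5 and 9.08 CPM in EAE NeuN-positive libraries. In NeuN-negative nuclei it was at 4.5, 4.94, 4.0, 4.83 and 3.73 CPM in healthy and 49.0, 43.9, 42.4, 16.6 and 27.2 CPM in EAE. No libraries overlapped in either sort (log2 fold changes 4.97 ± 0.42 and 3.35 ± 0.34, edgeR adjusted p = 1.33e-05 and 6.14e-06). Casp4, which encodes caspase-11 in the mouse, was at 0.535, 0.310, 0.198, 1.33 and 0.270 CPM in healthy and 7.32, 9.99, 18.3, 8.22 and 8.42 CPM in EAE NeuN-positive libraries. NeuN-negative libraries held 6.25, 6.19, 2.18, 10.8 and 3.57 CPM in healthy and 73.3, 25.7, 78.7, 21.3 and 43.5 CPM in EAE. These groups were also separate (log2 fold changes 4.40 ± 0.55 and 3.31 ± 0.43, edgeR adjusted p = 0.000177 and 5.35e-05).

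Gsdmd, the pore former cut by caspase-1 and caspase-11, was at 2.84, 1.90, 3.17, 3.72 and 1.12 CPM in healthy and 20.1, 15.5, 49.5, 3.96 and 14.5 CPM in EAE NeuN-positive libraries. NeuN-negative libraries held 78.1, 74.2, 44.7, 58.8 and 31.6 CPM in healthy and 382, 29.2, 503, 53.8 and 201 CPM in EAE. NeuN-positive groups were separate by a narrow margin at EAE 4, and in NeuN-negative nuclei EAE 2 lay below all healthy libraries and EAE 4 within their range. The log2 fold changes were 3.07 ± 0.54 and 2.17 ± 0.55 (edgeR adjusted p = 0.0025 and 0.00923). EAE 2 and EAE 4 were also the NeuN-negative libraries with the highest mitochondrial shares, 12.3 and 7.84%, and the lowest totals, 3149209 and 4104125 counts. Without the numbers of high mitochondrial share the NeuN-negative change of Gsdmd was 2.81 (edgeR adjusted p = 0.000109). Nlrp1b, an inflammasome sensor, had 19 counts in the 5 healthy NeuN-positive libraries, at 0.428, 0.0345, 0, 0.351 and 0.193 CPM, and 3.48, 0.746, 8.42, 2.20 and 4.41 CPM in the EAE ones. In NeuN-negative nuclei Nlrp1b was at 19.5, 22.8, 11.8, 8.09 and 15.3 CPM in healthy and 102, 19.2, 112, 26.6 and 102 CPM in EAE, where again EAE 2 fell within the healthy range and EAE 4 just above it (log2 fold changes 4.27 ± 0.82 and 2.46 ± 0.42, edgeR adjusted p = 0.00456 and 0.000555).

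Nlrp3, the sensor of membrane and ion disturbance, was at 0.161, 0.0690, 0.396, 0.0702 and 0.617 CPM in healthy and 1.63, 0.448, 3.47, 4.11 and 1.12 CPM in EAE NeuN-positive libraries, with 26 and 131 counts. In NeuN-negative libraries it was at 2.25, 4.0, 1.45, 4.61 and 3.11 CPM in healthy and 11.8, 15.7, 19.9, 16.1 and 15.6 CPM in EAE, with no overlap (log2 fold change 2.74 ± 0.41, edgeR adjusted p = 0.000164). Casp1, which matures interleukin-1β and cuts gasdermin D, was at 0.642, 0.552, 0.792, 0.211 and 0.501 CPM in healthy and 2.44, 3.88, 6.65, 0 and 1.38 CPM in EAE NeuN-positive libraries. EAE 4 held no count of Casp1, and the change missed the threshold (2.49 ± 0.82, edgeR adjusted p = 0.0686). It passed without the numbers of high mitochondrial share, which include EAE 4 (2.92, edgeR adjusted p = 0.0105). In NeuN-negative libraries Casp1 was at 5.65, 6.72, 2.42, 4.04 and 3.22 CPM in healthy and 19.7, 17.3, 35.6, 2.94 and 7.18 CPM in EAE (log2 fold change 2.17 ± 0.52, edgeR adjusted p = 0.00632), with EAE 4 inside the healthy range. Gsdme, the gasdermin cut by caspase-3, did not pass in either sort (-0.17 ± 0.25 and -0.05 ± 0.28, edgeR adjusted p = 0.677 and 0.907). Its means were 40.5 ± 10.2 CPM (SD, n = 5) in healthy and 32.6 ± 7.22 in EAE NeuN-positive, and 19.4 ± 4.47 and 14.8 ± 3.29 in NeuN-negative nuclei.

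Casp12, a caspase-1 relative next to Casp4, was at 0.375, 0.172, 0.495, 0.0702 and 0.501 CPM in healthy and 2.74, 0.895, 5.23, 1.17 and 3.62 CPM in EAE NeuN-positive libraries. NeuN-negative libraries held 6.50, 3.52, 5.09, 2.13 and 6.43 CPM in healthy and 26.6, 11.6, 14.7, 8.30 and 12 CPM in EAE. Neither sort showed overlap (log2 fold changes 3.15 ± 0.67 and 1.92 ± 0.40, edgeR adjusted p = 0.00942 and 0.00277). The other caspases outside the inflammasome and Parp1, the DNA break sensor cut by caspases, were not called. Casp2, a caspase activated by p53-linked stress, had -0.55 ± 0.29 and -0.46 ± 0.30 (edgeR adjusted p = 0.229 and 0.248). Levels of Casp2 were 18.8 ± 8.15 and 11.8 ± 2.96 CPM in healthy and EAE NeuN-positive, and 24.9 ± 7.12 and 14.4 ± 4.59 in NeuN-negative nuclei. Casp6, an effector caspase linked to axon pruning, had -0.38 ± 0.53 and 0.56 ± 0.46 (edgeR adjusted p = 0.667 and 0.379). Levels of Casp6 were 4.76 ± 2.48 and 3.37 ± 2.14 CPM in healthy and EAE NeuN-positive, and 5.61 ± 0.532 and 6.54 ± 2.92 in NeuN-negative nuclei. Parp1 had -0.41 ± 0.20 and -0.49 ± 0.38 (edgeR adjusted p = 0.198 and 0.347). Levels of Parp1 were 76.9 ± 16.3 and 53.7 ± 13.2 CPM in healthy and EAE NeuN-positive, and 52.7 ± 13.7 and 30.8 ± 17.0 in NeuN-negative nuclei.

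**Figure D3:**
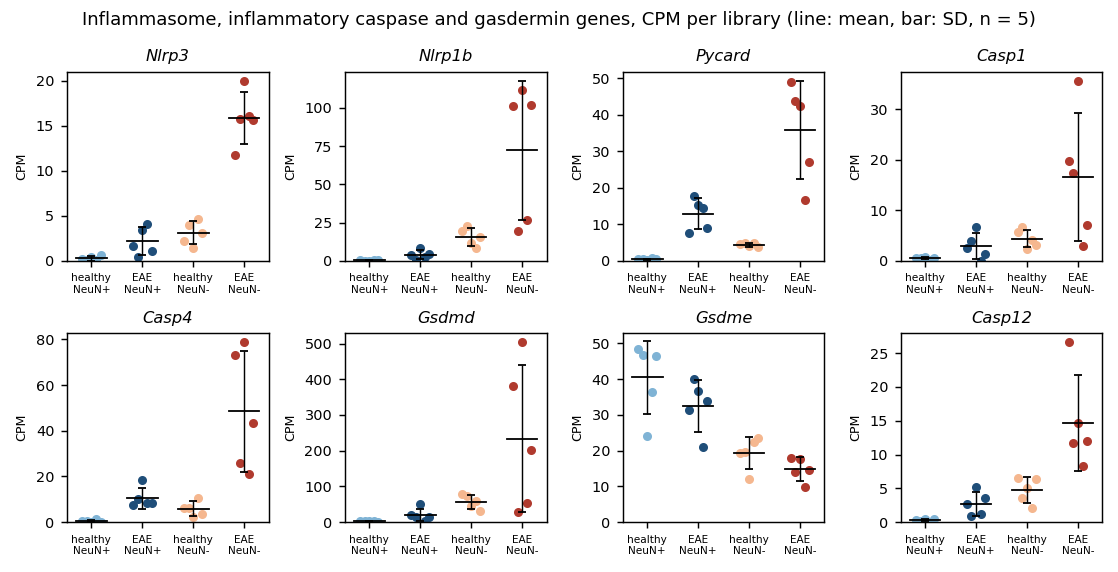
CPM (y axis, linear, one scale per gene) of 8 inflammasome, inflammatory caspase and gasdermin genes in each library of the 4 groups (x axis), with the mean as a line and the SD as a bar (n = 5), bars being cut at 0. Pycard, Casp4 and Casp12 are higher in EAE than in healthy libraries of the same sort without overlap, and in NeuN-negative nuclei the EAE libraries of Gsdmd spread from 29.2 to 503 CPM.

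In the BCL2 family, 3 of 10 genes rose in NeuN-positive and 5 of 10 in NeuN-negative nuclei, the first all guardians and the second 2 guardians and 3 BH3-only genes. Over all genes the shares called higher were 6.55% and 15.1%. Pmaip1 reached the NeuN-negative limit of 0.886 CPM in 2 healthy and 5 EAE libraries, so its rise is no support for a direction. Of the guardians, which hold BAX and BAK in check, Bcl2 was at 19.5, 20.5, 60.5, 30.5 and 20.2 CPM in healthy and 64.6, 108, 37.3, 87.0 and 83.2 CPM in EAE NeuN-positive libraries. The groups overlapped through healthy 3 and EAE 3 (log2 fold change 1.45 ± 0.42, edgeR adjusted p = 0.0415). The call was lost in 8 of the 10 single omissions, those of EAE 1, 2, 4 and 5 and healthy 1, 2, 4 and 5 (adjusted p 0.00339 to 0.106 over the 10). NeuN-negative libraries held 14.0, 11.8, 36, 21.5 and 19.9 CPM in healthy and 82.6, 28.4, 50.6, 39.1 and 75.8 CPM in EAE (log2 fold change 1.68 ± 0.37, edgeR adjusted p = 0.00378). Only healthy 3 exceeded any EAE library there.

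Mcl1, a short-lived guardian, was at 83.2, 72.0, 56.2, 64.7 and 78.7 CPM in healthy and 122, 132, 150.0, 91.6 and 103 CPM in EAE NeuN-positive libraries, with no overlap (log2 fold change 0.88 ± 0.20, edgeR adjusted p = 0.0123). This call was lost without a count filter and in a model of all 20 libraries. NeuN-negative libraries held 171, 166, 56.2, 136 and 169.7 CPM in healthy and 469, 112, 408, 101 and 293 CPM in EAE. EAE 2 and 4 lay below 4 healthy libraries, and the call (log2 fold change 1.24 ± 0.40, edgeR adjusted p = 0.0318) was lost in 8 of the 10 omissions, all except those of EAE 2 and EAE 4 (adjusted p 0.0159 to 0.1). Bcl2l1, which encodes BCL-XL, was at 63.2, 58.5, 81.8, 55.1 and 57.0 CPM in healthy and 121, 168, 78.1, 100 and 109.7 CPM in EAE NeuN-positive libraries. EAE 3 fell below healthy 3, and the call (log2 fold change 1.01 ± 0.27, edgeR adjusted p = 0.033) was lost in 8 of the 10 omissions, those of EAE 1, 2, 4 and 5 and healthy 1, 2, 4 and 5 (adjusted p 0.00844 to 0.0914). In NeuN-negative nuclei Bcl2l1 was at 255, 279, 199, 145 and 205 CPM in healthy and 239.7, 88.8, 194, 147 and 303 CPM in EAE and did not pass the test (0.15 ± 0.34, edgeR adjusted p = 0.774).

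The BH3-only genes, whose products set off BAX and BAK, were called higher in NeuN-negative nuclei in 3 of 5 cases and in NeuN-positive nuclei in none. The shares of all genes called higher were 15.1% and 6.55%. Pmaip1, among the 3, entered the NeuN-negative test through its EAE libraries. A difference of the EAE effect between sorts was called for none of the 5 in the edgeR fit of all 20 libraries. Bid, the link from caspase-8 to mitochondria, was at 4.0, 7.32, 3.27, 4.83 and 6.24 CPM in healthy and 25.2, 4.87, 35.2, 8.99 and 19.7 CPM in EAE NeuN-negative libraries (log2 fold change 2.12 ± 0.42, edgeR adjusted p = 0.00176). EAE 2 was inside the healthy range there. In NeuN-positive libraries Bid was at 12.7, 13.3, 2.18, 7.51 and 15.6 CPM in healthy and 9.84, 6.56, 16.0, 13.1 and 11.1 CPM in EAE, which overlapped (0.27 ± 0.40, edgeR adjusted p = 0.691). Bcl2l11, which encodes BIM, was at 12.3, 8.94, 8.72, 14.4 and 15.0 CPM in healthy and 24.6, 29.8, 27.6, 13.7 and 20.1 CPM in EAE NeuN-negative libraries (log2 fold change 1.32 ± 0.32, edgeR adjusted p = 0.00668), with EAE 4 alone inside the healthy range. This call was lost without a count filter. In NeuN-positive libraries it was at 5.73, 6.28, 3.86, 4.14 and 7.87 CPM in healthy and 9.10, 18.2, 10.3, 4.55 and 7.04 CPM in EAE (0.98 ± 0.40, edgeR adjusted p = 0.122). Pmaip1, which encodes NOXA, the partner of MCL1, was at 1.60, 0.728, 0.363, 0.787 and 2.30 CPM in healthy and 5.88, 5.69, 3.63, 7.44 and 2.60 CPM in EAE NeuN-negative libraries. Those groups were separate, but the call (log2 fold change 2.55 ± 0.69, edgeR adjusted p = 0.0125) was lost without healthy 2 (adjusted p = 0.0531). NeuN-positive libraries held 0.856, 1.0, 0.495, 0.281 and 1.85 CPM of Pmaip1 in healthy and 1.92, 9.85, 0.739, 2.06 and 3.75 CPM in EAE, with the highest value in EAE 2 (2.23 ± 0.74, edgeR adjusted p = 0.0707).

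The pore formers and the remaining BH3-only genes were not called in either sort. Bax was at 119 ± 31.1 CPM (SD, n = 5) in healthy and 69.0 ± 29.0 in EAE NeuN-positive nuclei (log2 fold change -0.71 ± 0.25, edgeR adjusted p = 0.0841), and at 127 ± 42.3 and 71.5 ± 61.8 in NeuN-negative nuclei (-0.66 ± 0.50, edgeR adjusted p = 0.335). In EAE NeuN-negative nuclei Bax read 118, 8.94, 151, 18.3 and 61.7 CPM, lowest in EAE 2 and 4. Bak1 had 0.64 ± 0.23 and -0.19 ± 0.36 (edgeR adjusted p = 0.0876 and 0.716). In NeuN-positive nuclei its EAE libraries, at 47.3, 56.2, 56.5, 59.2 and 55.8 CPM, all exceeded the healthy ones, at 37.5, 34.1, 44.4, 46.7 and 27.3 CPM, although the test did not pass. Bad, a BH3-only protein regulated by survival kinases, had 0.50 ± 0.27 and 0.39 ± 0.29 (edgeR adjusted p = 0.248 and 0.315). Levels of Bad were 28.5 ± 7.96 and 37.4 ± 9.77 CPM in healthy and EAE NeuN-positive, and 23.5 ± 3.74 and 25.5 ± 9.71 in NeuN-negative nuclei. Bbc3, which encodes the p53 target PUMA, had -0.29 ± 0.34 and -0.03 ± 0.36 (edgeR adjusted p = 0.604 and 0.963). Levels of Bbc3 were 16.7 ± 5.58 and 12.8 ± 6.31 CPM in healthy and EAE NeuN-positive, and 15.5 ± 4.25 and 12.6 ± 6.48 in NeuN-negative nuclei.

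Among the apoptosome and mitochondrial factors, 1 of 5 was called, and it fell. Over all genes 3.68% were called lower in NeuN-positive and 12.6% in NeuN-negative nuclei. Aifm1, an X-linked gene (chrX:48474944-48513563) whose flavoprotein supports respiratory chain assembly in mitochondria and can move to the nucleus in cell death, was at 69.9, 58.6, 25.6, 52.6 and 38.5 CPM in healthy and 11.3, 2.69, 38.3, 12.5 and 9.41 CPM in EAE NeuN-positive libraries. NeuN-negative libraries held 62.2, 56.8, 23.6, 51.4 and 33.3 CPM in healthy and 11, 14.3, 20.8, 4.67 and 14.0 CPM in EAE. The NeuN-negative groups were separate, and in NeuN-positive nuclei only EAE 3 lay in the healthy range. Aifm1 had log2 fold changes of -1.68 ± 0.47 and -1.49 ± 0.37 (edgeR adjusted p = 0.0368 and 0.0079). In NeuN-positive nuclei the call was lost in 7 of the 10 omissions, those of EAE 1, 2, 4 and 5 and healthy 1, 2 and 4 (adjusted p 0.00236 to 0.0965). In NeuN-negative nuclei it was kept in all 10 (adjusted p 0.00351 to 0.023). Diablo, whose product SMAC relieves the block of caspases by XIAP, was at 157, 150.0, 140.3, 165 and 119 CPM in healthy and 247, 163, 177, 227 and 247 CPM in EAE NeuN-positive libraries (0.65 ± 0.21, edgeR adjusted p = 0.0587). In NeuN-negative libraries it was at 97.5, 108, 79.6, 83.5 and 75.2 CPM in healthy and 74.1, 32.5, 68.7, 17.1 and 45.0 CPM in EAE, lower in every EAE library, but the test did not pass (-0.65 ± 0.31, edgeR adjusted p = 0.125).

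Apaf1, the scaffold of the apoptosome, had -0.11 ± 0.34 and 0.55 ± 0.30 (edgeR adjusted p = 0.857 and 0.179). Levels of Apaf1 were 16.1 ± 6.29 and 13.7 ± 5.74 CPM in healthy and EAE NeuN-positive, and 16.5 ± 4.51 and 19.0 ± 5.05 in NeuN-negative nuclei. Casp9, the caspase it activates, had -0.44 ± 0.28 and -0.09 ± 0.29 (edgeR adjusted p = 0.306 and 0.83). Levels of Casp9 were 19.5 ± 3.69 and 13.3 ± 5.02 CPM in healthy and EAE NeuN-positive, and 17.4 ± 4.52 and 13.0 ± 3.98 in NeuN-negative nuclei. Xiap, a direct inhibitor of caspases, had -0.43 ± 0.42 and -0.66 ± 0.38 (edgeR adjusted p = 0.52 and 0.195). Its levels were 23.9 ± 19.2 and 15.9 ± 3.38 CPM in healthy and EAE NeuN-positive, and 44.5 ± 31.9 and 21.5 ± 7.21 in NeuN-negative nuclei. Healthy 5 held the most Xiap in both sorts, at 55.8 CPM in NeuN-positive and 96.0 CPM in NeuN-negative nuclei.

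**Figure D4:**
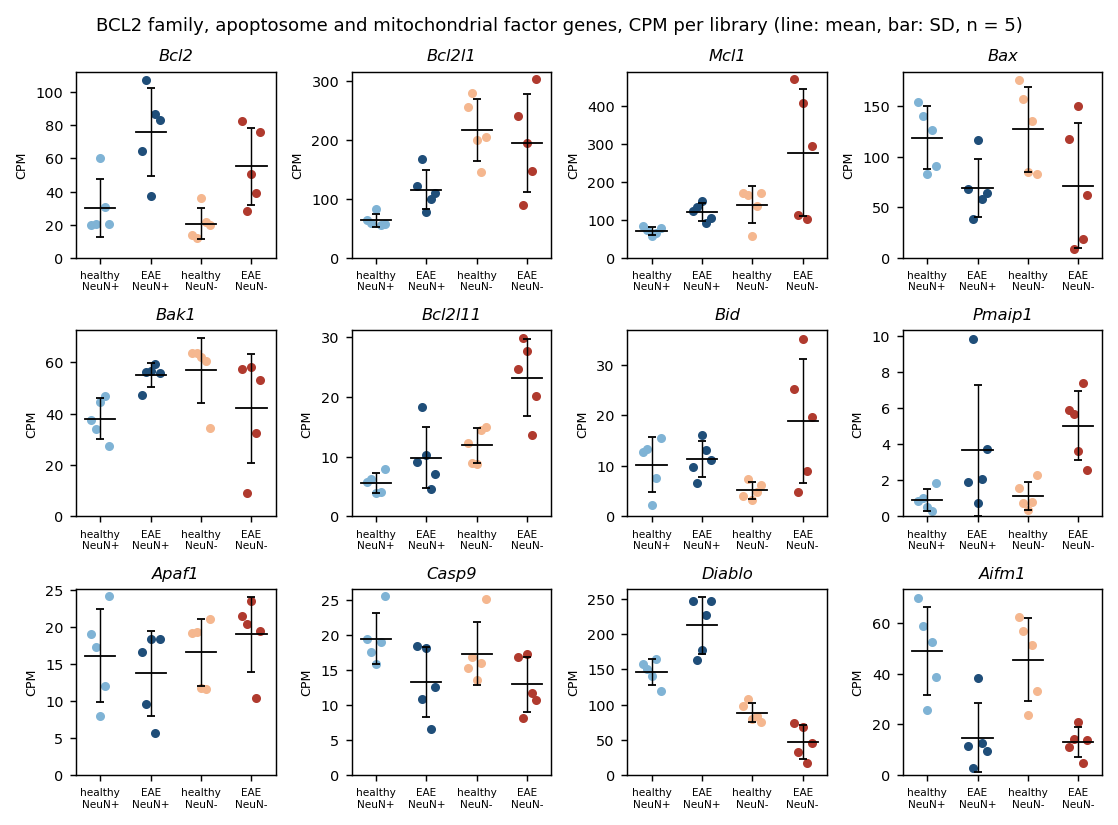
CPM (y axis, linear, one scale per gene) of 12 BCL2 family, apoptosome and mitochondrial factor genes in each library of the 4 groups (x axis), with the mean as a line and the SD as a bar (n = 5). Aifm1 is lower in EAE than in healthy libraries apart from EAE 3 in NeuN-positive nuclei, and Diablo lies at 163 to 247 CPM in EAE NeuN-positive and 17.1 to 74.1 CPM in EAE NeuN-negative libraries.

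A list of 85 further cell death genes, also chosen with earlier results known, was measured alongside. In NeuN-positive nuclei 13 of 70 tested rose and 2 fell, and in NeuN-negative nuclei 26 of 76 rose and 7 fell. Over all genes 6.55% and 15.1% were called higher. The falls, 2 of 70 and 7 of 76, are no larger a share than the 3.68% and 12.6% of all genes that fell, and the genes that fell are given as values only. Genes under the count limit in healthy libraries could enter the test only through EAE libraries, so the counts of rises are no support for a direction. In NeuN-positive nuclei Tnf was such a gene, with a healthy mean under the limit of 0.64 CPM. Tnf, the ligand of TNF receptor 1, was at 0.0884 ± 0.111 CPM (SD, n = 5) in healthy and 5.68 ± 3.73 in EAE NeuN-positive nuclei (log2 fold change 6.01 ± 0.72, edgeR adjusted p = 0.000149). Tnfrsf1b, the second TNF receptor, changed by 1.68 ± 0.24 and 3.62 ± 0.37, and Birc3, a ubiquitin ligase that keeps RIPK1 in its survival mode, by 2.85 ± 0.46 and 3.33 ± 0.31. Txnip, a thioredoxin inhibitor that binds NLRP3, rose by 2.98 ± 0.42 in NeuN-positive nuclei. Il1b, the cytokine matured by caspase-1, rose by 6.74 ± 0.69 and Tnfaip3, the ubiquitin editor A20 that restrains NF-κB, by 3.20 ± 0.34 in NeuN-negative nuclei. Septin4, whose ARTS isoform opposes XIAP, fell by 1.04 ± 0.27 and 2.85 ± 0.60 on the log2 scale. Sharpin, a subunit of the linear ubiquitin ligase, fell by 1.08 ± 0.30 in NeuN-positive nuclei. Spata2, which recruits the deubiquitinase CYLD, Parg, which degrades poly(ADP-ribose), and Il18, a cytokine matured by caspase-1, fell by 1.76 ± 0.35, 1.64 ± 0.36 and 2.47 ± 0.58 in NeuN-negative nuclei. Each passed the edgeR threshold.

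The sorts were compared within each condition. Of 35 tested in healthy mice, 18 were lower and 3 higher in NeuN-positive nuclei, and of 36 tested in EAE, 17 were lower and 2 higher. Over all genes, 23.0% were lower and 22.8% higher in healthy mice, and 14.8% and 15.5% in EAE. The median log2 fold change of NeuN-positive over NeuN-negative nuclei was -0.99 over the members tested against -0.01 over all genes in healthy mice, and -1.27 against -0.16 in EAE. In healthy mice the count limit was 0.493 CPM. Mlkl, Nlrp1b and Casp12 reached it in none of the NeuN-positive libraries, Tnfrsf10b, Casp8 and Nlrp3 in 1, and Zbp1, Pycard and Casp4 in 2. These 9 genes entered the test through the NeuN-negative libraries, so their count and the median are no support for a direction. Members called lower in NeuN-positive nuclei in both conditions numbered 17. Nlrp1b, at 0.201 ± 0.189 CPM (SD, n = 5) in NeuN-positive and 15.5 ± 5.89 in NeuN-negative nuclei of healthy mice, differed by -6.27 ± 0.61 (edgeR adjusted p = 5.81e-06). Gsdmd differed by -4.55 ± 0.40 in healthy mice and -3.59 ± 0.67 in EAE (edgeR adjusted p = 2.75e-06 and 0.00081), and Casp8 by -4.22 ± 0.44 and -3.04 ± 0.43 (edgeR adjusted p = 9.82e-06 and 9.24e-05). Bcl2l1 differed by -1.81 ± 0.22 and -0.95 ± 0.35 (edgeR adjusted p = 2.82e-05 and 0.047). Of the 13 genes that rose with EAE in NeuN-positive nuclei, 12 were lower there than in NeuN-negative nuclei in each condition, Bcl2 being the exception. Among them Zbp1, Mlkl, Casp8, Nlrp1b, Pycard, Casp4 and Casp12 entered the healthy test through NeuN-negative libraries. For this count and the 17 lower in both conditions, shares over all genes were not computed, so neither is support for a direction.

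Gsdme and Diablo were the 2 members higher in NeuN-positive nuclei in both conditions. Gsdme was at 48.5, 46.7, 24.1, 36.5 and 46.4 CPM in NeuN-positive and 19.4, 19.7, 12.1, 22.4 and 23.6 CPM in NeuN-negative libraries of healthy mice, without overlap, and differed by 1.01 ± 0.22 (edgeR adjusted p = 0.00212). In EAE it differed by 0.91 ± 0.30 (edgeR adjusted p = 0.0294), a call lost without EAE NeuN-positive 1, 3 or 5 or EAE NeuN-negative 4 or 5 (adjusted p 0.0171 to 0.0641 over the 10 omissions). Diablo differed by 0.68 ± 0.17 in healthy mice and 2.0 ± 0.35 in EAE (edgeR adjusted p = 0.00497 and 0.000418), with every NeuN-positive library above every NeuN-negative one in each condition. Its call in healthy mice was lost in a model of all 20 libraries (edgeR adjusted p = 0.0952). Parp1 was higher in healthy NeuN-positive nuclei (0.51 ± 0.19, edgeR adjusted p = 0.0438), lost in 8 of the 10 omissions, all except those of NeuN-negative 2 and NeuN-positive 3 (adjusted p 0.019 to 0.138). Calls in EAE were also lost for Bcl2l1 in 8 of the 10 omissions, all except those of number 2 in either sort (adjusted p 0.0225 to 0.214). For Fas (-2.0 ± 0.70, edgeR adjusted p = 0.039) this held without NeuN-negative 1, 3 or 5 or NeuN-positive 2, 4 or 5 (adjusted p 0.0206 to 0.134), for Ripk1 (-2.43 ± 0.84, edgeR adjusted p = 0.0355) without NeuN-negative 2, 3 or 5 or NeuN-positive 1, 2 or 5 (adjusted p 0.0262 to 0.0838), and for Mcl1 (-1.34 ± 0.37, edgeR adjusted p = 0.0115) without NeuN-positive 4 or 5 (adjusted p 0.00358 to 0.0515).

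With the number taken as a block that pairs the sorts, 22 members were lower and 5 higher in healthy NeuN-positive nuclei, and the counts in EAE stayed at 17 and 2. Over all genes the block called 32.5% lower and 33.2% higher in healthy mice, and 17.8% and 20% in EAE, so the 5 of 35 members higher in healthy mice lie below the share of all genes. The block added Fadd (-0.88 ± 0.24, edgeR adjusted p = 0.00843), Bak1 (-0.62 ± 0.12, 0.00118), Xiap (-1.0 ± 0.14, 0.000114) and Casp2 (-0.49 ± 0.16, 0.0243) among the lower. It added Bcl2 (0.46 ± 0.14, 0.0131) and Bid (0.84 ± 0.31, 0.0365) among the higher.

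**Figure D5:**
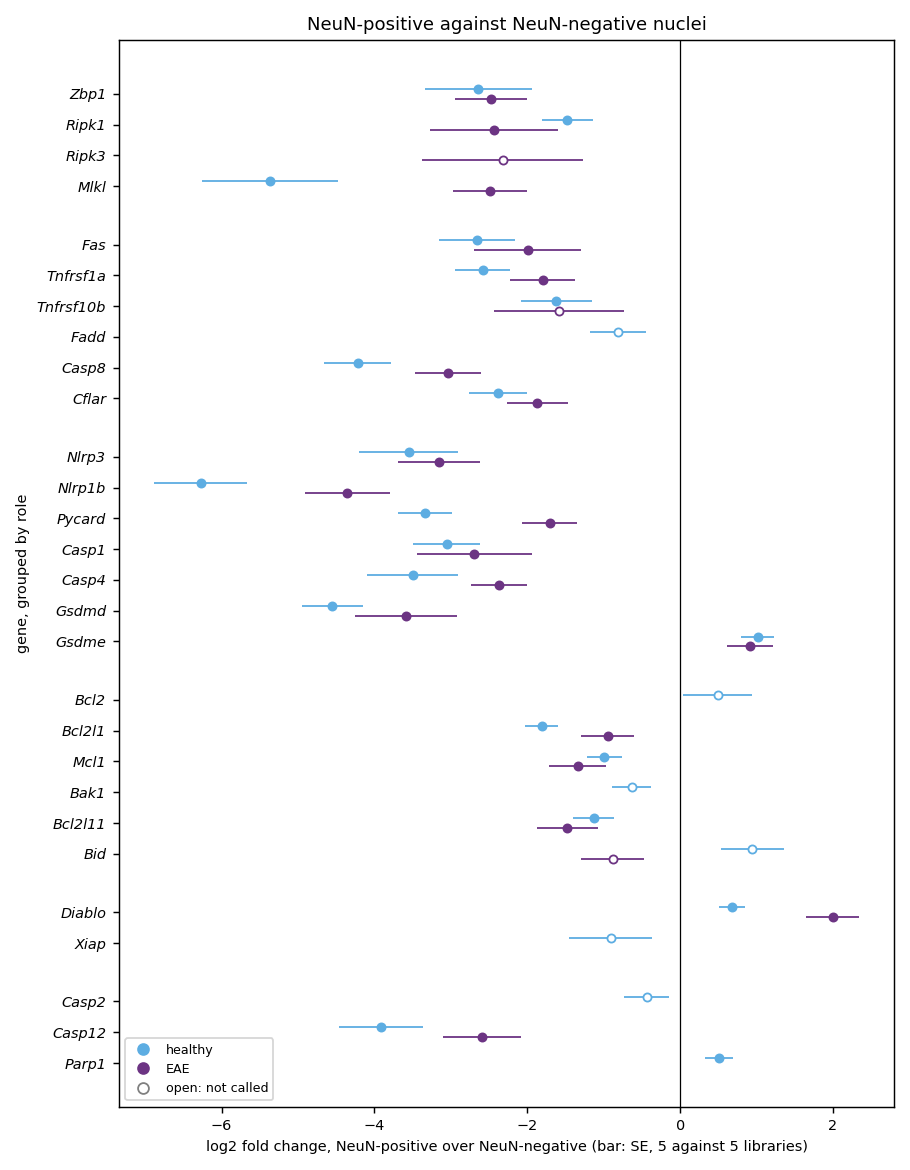
Log2 fold change of NeuN-positive over NeuN-negative nuclei (x axis) for the members called in the fit reported, with the block or without the numbers of high mitochondrial share, grouped by role (y axis), in healthy (light blue) and EAE (purple) mice. Points are edgeR estimates with their SE from 5 against 5 libraries, and filled points were called at an adjusted p under 0.05. Gsdme and Diablo have filled points to the right of 0 in both conditions, and Nlrp1b, Gsdmd and Casp8 lie far to the left.

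Whether EAE changed the members unequally in the 2 sorts was tested in a model of all 20 libraries. None of the 36 members was called by edgeR, either higher or lower in NeuN-positive nuclei, where 1.74% and 0.822% of 20444 genes were called. At an unadjusted p under 0.05, 6 members had a positive difference (NeuN-positive minus NeuN-negative) and 1 a negative one, where 11.1% and 7.09% of all genes did. DESeq2 called 3 and 1, against 3.17% and 4.22% of all genes, and limma voom 10 and 1, against 15.0% and 9.13%. The negative call was Bid in each. So in the edgeR fit of all 20 libraries, calls made in one sort only, such as those of Bid, Bcl2l11 and Bcl2l1, were not shown to differ between sorts. The estimates farthest from 0 were those of Mlkl (2.88 ± 0.90, edgeR adjusted p = 0.0792), Nlrp1b (1.98 ± 0.79, 0.175), Pycard (1.75 ± 0.49, 0.0506) and, in the other direction, Bid (-1.75 ± 0.63, 0.127). Diablo had 1.42 ± 0.41 (0.0605) and Casp4 1.21 ± 0.65 (0.327). With each number as a block, 5 members were called with a positive difference and 0 with a negative one, where 9.74% and 2.45% of all genes were called: Mlkl (2.76 ± 0.83, edgeR adjusted p = 0.0401), Nlrp1b (1.97 ± 0.60, 0.0423), Pycard (1.77 ± 0.46, 0.0199), Casp4 (1.40 ± 0.44, 0.0468) and Diablo (1.51 ± 0.35, 0.0117). In the separate fits of each sort, the first 4 had larger log2 fold changes in NeuN-positive than in NeuN-negative nuclei. The estimates of Diablo had opposite signs there (0.65 ± 0.21 and -0.65 ± 0.31), neither past the threshold. Mean CPM of Mlkl, Nlrp1b, Pycard and Casp4 rose by more in NeuN-negative nuclei, as for Nlrp1b from 15.5 to 72.3 against 0.201 to 3.85. None of the 5 was called in the edgeR fit without the block. In healthy NeuN-positive nuclei, Mlkl, Nlrp1b, Pycard and Casp4 stood at 9, 19, 44 and 47 counts over 5 libraries, so their fold changes there rest on few reads. Diablo was well counted, at 14128. Without the 3 numbers of high mitochondrial share, only Bid was called (-2.44, edgeR adjusted p = 0.00796), with a negative difference, where 1.83% and 1.82% of all genes were called higher and lower.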

How the data were processed

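RNA of sorted nuclei was purified on Qiagen columns and made into polyA-selected TruSeq libraries, per the labels' protocols. The authors deposited raw counts for Ensembl genes. STAR 2.4, DESeq2, GRCm39 and mm10 are named in the submitters' processing notes, without roles. The sources used here do not state the counting tool, annotation or strand. Groups came from the titles, and no label says that libraries are from separate mice, so p-values measure the spread between these samples.

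Comparisons used edgeR 4.0.16 in R 4.3.3 (filterByExpr, TMM, robust quasi-likelihood) on 5 against 5 libraries, or all 20 for the difference of the EAE effect, with Benjamini-Hochberg adjustment over all genes tested and calls under 0.05. SE is the log2 fold change divided by the square root of F. CPM used TMM over 20 libraries. The pipeline was tested on simulated counts. No 2 libraries of a group were duplicates (0 of 40 pairs identical).

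Members, lists and alternatives were chosen with earlier results of these data known. Per-library values are printed for members called in an EAE comparison, and for Diablo, Bak1, Bax and Gsdme chosen after seeing values; the other members are given by mean and SD; further cell death genes are up to 4 higher and 4 lower by smallest p. Alternatives were DESeq2 1.42.0 size factors or Wald test, limma 3.58.1 voom, other filters, all libraries, a replicate block and single omissions; leaving out both libraries of each number whose NeuN-positive library held over 2% mitochondrial counts was added after seeing the data. Deviations of same-numbered NeuN-positive and NeuN-negative libraries correlated at 0.118 to 0.389 (EAE) and 0.282 to 0.703 (healthy). Those of different numbers correlated at -0.25 to 0.203 and -0.501 to 0.325, so the ranges overlap and pairing is not certain. The fits reported do not pair the sorts. Numbers were taken to pair them only in the replicate block and where both libraries of a number were left out. Protein sequences were not used here.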

Additional observations from a re-analysis of the deposited data

Results flagged for a closer look

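In 10 of 138 groups of 5 libraries, 1 library stood apart from the other 4 by Dixon's test on log2 CPM, where chance gives about 1 in 20. Mlkl was at 0.421 CPM in healthy NeuN-positive library 4, where the others had a median of 0.0365. Cflar was at 17.0 CPM in healthy NeuN-positive 3 (median of the others 5.91). Mcl1 was at 56.2 CPM in healthy NeuN-negative 3 (168) and Casp2 at 12.8 CPM in the same library (28.3). Bak1 was at 34.4 CPM in healthy NeuN-negative 5 (62.8) and at 47.3 CPM in EAE NeuN-positive 1 (56.4). Tnfrsf10b was at 0.449 CPM in healthy NeuN-negative 4 (1.29). Bad was at 54.5 CPM in EAE NeuN-positive 4 (34.3). Apaf1 was at 10.4 CPM in EAE NeuN-negative 4 (20.9) and Parp1 at 4.60 CPM in EAE NeuN-negative 2 (36.8). Of these 10, Cflar, Mcl1 and Casp2 (healthy 3), Bad and Apaf1 (EAE 4) and Parp1 (EAE 2) were from the 3 numbers of high mitochondrial share; its part was not tested.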

How the results depend on the processing

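Counts of members called, first those higher and then those lower, changed by over 1.5 times as follows. With limma voom, 20 and 4 members were called in NeuN-positive EAE (13 and 1 in the fit reported) and 4 were lower in NeuN-negative EAE. In a model of all 20 libraries 2 were lower in NeuN-negative EAE, and 1 was higher in the healthy sort comparison, where voom and the replicate block gave 5. Without a count filter 1 was higher in the EAE sort comparison. For the difference between sorts, DESeq2 called 3 and 1, voom 10 and 1, the filter at 1 CPM 1 higher, and the replicate block 5 higher. Without the 3 numbers whose NeuN-positive library held over 2% mitochondrial counts 0 were lower in NeuN-positive EAE and 1 was lower in the difference. Omitting single libraries gave 11 to 15 higher and 0 to 2 lower in NeuN-positive EAE, 15 to 18 and 1 to 1 in NeuN-negative EAE, 2 to 4 and 18 to 19 in the healthy sort comparison, 1 to 2 and 13 to 18 in the EAE sort comparison, and 0 to 3 and 0 to 0 in the difference.

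Signs changed among uncalled members. In NeuN-positive EAE these were Ripk1 (0.23 without those numbers), Bid (-0.10 with voom), Apaf1 (0.10 without those numbers, -0.2732 to 0.06089 in omissions) and Xiap (-0.685 to 0.09131). In NeuN-negative EAE they were Ripk1 (-0.36, voom), Gsdme (-0.1977 to 0.005165), Bcl2l1 (-0.19 without a filter, -0.07727 with all libraries, -0.09356 to 0.2846 in omissions), Bak1 (0.28 without those numbers, -0.4203 to 0.04845) and Bbc3 (0.01612 with DESeq2 size factors, 0.0176 with its Wald test, 0.22 without those numbers, -0.2632 to 0.1574). In omissions the EAE difference of marker sums in NeuN-negative nuclei spanned -2725 to 12570.0 CPM (oligodendrocyte) and -192.8 to 93.42 (endothelial). Of all members tested, signs changed for 3 of 35 in the healthy and 6 of 36 in the EAE sort comparison and 18 of 36 in the difference, none of them called; values of those are not given. The causes were not tested.

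For EAE against healthy the numbers do not pair libraries (correlations -0.342 to 0.274 and -0.331 to 0.215); the replicate block gave 11 and 1, and 16 and 1. For the sort comparisons it changed no call other than those given above. Ripk3, Tnfrsf10b and Nlrp3 had too few counts to be tested in NeuN-positive EAE.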
